A study of Mus musculus with 18 samples.

Results

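The NRF2 antioxidant genes were 10 of the 24485 genes listed in the expression files: Nfe2l2, Keap1, Hmox1, Nqo1, Gclc, Gclm, Txnrd1, Srxn1, Slc7a11 and Gsr. They were taken by symbol and not by a cut on their values, but with earlier results of these data known. RNA-seq was made from bone marrow-derived macrophages (BMDMs) of 12-week-old male Il10-/- mice on the C57BL/6J background, so all groups lacked interleukin 10 (IL-10) of their own. There were 6 groups of 3 libraries. JQ1 cells were pretreated over 12 hours with 500 nM (+)-JQ1, an inhibitor of the acetyl-lysine-binding BET proteins. IL-10 cells were pretreated over 12 hours with 10 ng/mL IL-10, and unstimulated cells received neither. Cells of the remaining groups (LPS alone, LPS + JQ1, LPS + IL-10) had the same 3 pretreatments and then 50 ng/mL lipopolysaccharide (LPS), a bacterial cell wall component, during the last 4 hours. The labels call cells without JQ1 or IL-10 untreated, whereas a vehicle control is named in the study's methods, so an effect of vehicle and an effect of JQ1 cannot be told apart where the control had none.

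NRF2, the product of Nfe2l2, is a transcription factor that KEAP1 holds in the cytoplasm and hands to a CUL3 ubiquitin ligase for destruction. Oxidants and electrophiles modify KEAP1, NRF2 then escapes, pairs with small MAF proteins and binds antioxidant response elements beside genes for glutathione synthesis, thioredoxin recycling, haem breakdown and quinone reduction. BACH1 occupies such elements as a repressor, and in macrophages the pathway limits oxidant damage during inflammatory activation. NRF2 is controlled mainly through the stability of its protein, which RNA levels do not measure.

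Promoters are shown first for Srxn1 and Slc7a11, because these NRF2 targets moved in opposite directions with JQ1. Promoter sequences came from RefSeq on build GRCm38.p6, which differs from the mm9 build of the files, and 7 of the 10 genes were matched (Hmox1, Gclc and Gsr were not). The 250 bases before the start of Srxn1 (chr2:152105274-152105523, plus strand) and of Slc7a11 (chr3:50443614-50443863, minus strand) read 5′ to 3′ as follows, with capitals marking TGANTCA, the pattern of AP-1 and MAF-type sites, in Srxn1 and TGATGCAA, the pattern of amino acid response elements, in Slc7a11.
Srxn1: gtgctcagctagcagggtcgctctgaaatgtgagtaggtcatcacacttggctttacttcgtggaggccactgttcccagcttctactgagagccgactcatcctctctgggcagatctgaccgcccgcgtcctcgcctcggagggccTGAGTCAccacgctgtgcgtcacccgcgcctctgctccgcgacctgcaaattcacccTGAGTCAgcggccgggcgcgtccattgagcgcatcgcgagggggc
Slc7a11: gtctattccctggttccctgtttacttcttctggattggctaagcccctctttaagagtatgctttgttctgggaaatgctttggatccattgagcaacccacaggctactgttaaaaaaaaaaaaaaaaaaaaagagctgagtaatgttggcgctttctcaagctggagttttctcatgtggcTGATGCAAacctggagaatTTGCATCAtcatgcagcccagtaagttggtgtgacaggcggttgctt
Both strands were searched. The Srxn1 window held 2 matches to TGANTCA, at -102 to -96 and -45 to -39 from the start, and the Slc7a11 window held 2 matches to TGATGCAA, at -66 to -59 on the same strand and -47 to -40 on the opposite strand. Over 32851 promoter windows of this length, 6.75% held TGANTCA and 0.791% held TGATGCAA. Neither window held TGACNNNGC, the form of the antioxidant response element core that was searched. It was in 10.2% of all windows and can overlap TGANTCA. Forms with another base in place of its C were not searched, so TGAGTCAgc, which starts at -45 in Srxn1, was not counted as a core. The windows around the 3 matches to TGACNNNGC among the members, in capitals, show how the letters vary.
Nfe2l2: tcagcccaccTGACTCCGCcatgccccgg
Gclm: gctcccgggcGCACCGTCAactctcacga
Txnrd1: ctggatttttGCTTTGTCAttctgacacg
The match lay at -240 to -232 on the same strand in Nfe2l2, at -134 to -126 on the opposite strand in Gclm, and at -92 to -84 on the opposite strand of 1 of 3 Txnrd1 starts. The Keap1 and Nqo1 windows held none of the 3 patterns. TGANTCA was in no window but that of Srxn1, and so in none of the 3 Txnrd1 windows or that of Gclm. Any link between these matches and the responses to JQ1 was not tested. A match describes the letters only, and elements further away were not searched.

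Libraries held 6781952 to 28289498 expected counts, so the 3 counts taken as the smallest readable amount corresponded to 0.106 to 0.442 CPM (counts as a share of the library total). Nqo1 exceeded 10 counts in 6 of 18 libraries and had 2 to 18 in all of them, whereas 8 members were above 10 counts in every library and Slc7a11 in 16. The knocked-out gene, Il10, still gave 27.1 to 176.7 normalised counts (counts divided by the library's size factor) per library. Macrophage markers fixed for the cell-type check (Csf1r, Adgre1, Cd68, Mertk, Lyz2 and Itgam, 6 of 6 measured) summed to 22362 to 23962 TPM (abundance per transcript length, scaled to the same total in every library) in unstimulated cells, 28145 to 28282 with JQ1, 12519 to 13664 with LPS and 17912 to 20514 with LPS + JQ1. These macrophage sums were mostly Lyz2, at 9721.56 to 24852.5 TPM over the libraries, and do not show that the 6 genes moved together. The lists of the 7 other cell types never exceeded 10.3 summed TPM, with Ly6g, Mcpt4 and Tpsb2 among the genes at 0 in all libraries. Among them the 4 dendritic cell genes summed to 0.360 to 1.57 TPM in unstimulated cells and 4.06 to 5.24 with LPS, and the 3 T cell genes, mostly Cd4, to 6.75 to 7.91 TPM in unstimulated cells and 3.06 to 3.92 with JQ1. The part of these marker levels in the results was not tested. In bulk RNA, fewer cells of a type and less RNA per cell cannot be told apart. Lane 7 carried replicate 1 and lane 8 replicate 3, while replicate 2 was split, its LPS-treated libraries being on lane 8.

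LPS changed 8 of the 10 genes, against 64.5% of all genes tested (DESeq2 Wald test, adjusted p under 0.05). It raised 5 members (31.6% of all genes rose) and lowered 3 (32.9% fell), with a median log2 fold change of 0.13 over the members and -0.07 over all genes tested. Under total-count scaling the balance turned to 4 higher and 6 lower, Nfe2l2 (-0.49), Nqo1 (-1.42) and Srxn1 (-1.10) being lower there, and on log2(TPM + 1) it was 4 and 5. JQ1 alone changed 5 members, against 45.7%: 4 rose (background 21.9%) and 1 fell (23.7%), with medians of 0.07 and -0.00. With total counts 4 rose and 2 fell, Keap1 joining the falls, and on log2(TPM + 1) 4 rose and 3 fell, Keap1 and Gsr joining. JQ1 before LPS changed 8 members relative to LPS alone, against 57.3%: 5 rose (24.4%) and 3 fell (32.9%), with medians of 0.10 and -0.11. With total counts and on log2(TPM + 1) 6 rose and 3 fell, Txnrd1 joining the rises. IL-10 alone raised 1 member, Gsr, against 1.80% of all genes rising, 1.01% falling and 2.81% changing in either direction; no member fell at an adjusted p under 0.05 or by edgeR, and 3 did at an unadjusted p under 0.05 (Gclc, Txnrd1 and Srxn1). IL-10 before LPS raised 3 of the 9 members with an adjusted p and lowered none at an adjusted p under 0.05, against 17.2% changing, 8.38% rising and 8.81% falling; 1 fell at an unadjusted p under 0.05 (Txnrd1) and 0 by edgeR. JQ1 and IL-10 were set against the same unstimulated and the same LPS libraries, so these comparisons share their control samples. All 8, 5, 8, 1 and 3 members called in these comparisons moved the same way in all 3 pairs of libraries and on both sequencing lanes, and their normalised counts did not overlap between groups. That held for most called genes, since 98.0% to 99.6% of those called in each comparison moved one way in all 3 pairs, 99.4% to 99.9% did so on both lanes and 91.7% to 97.6% did not overlap.

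**Figure D1:**
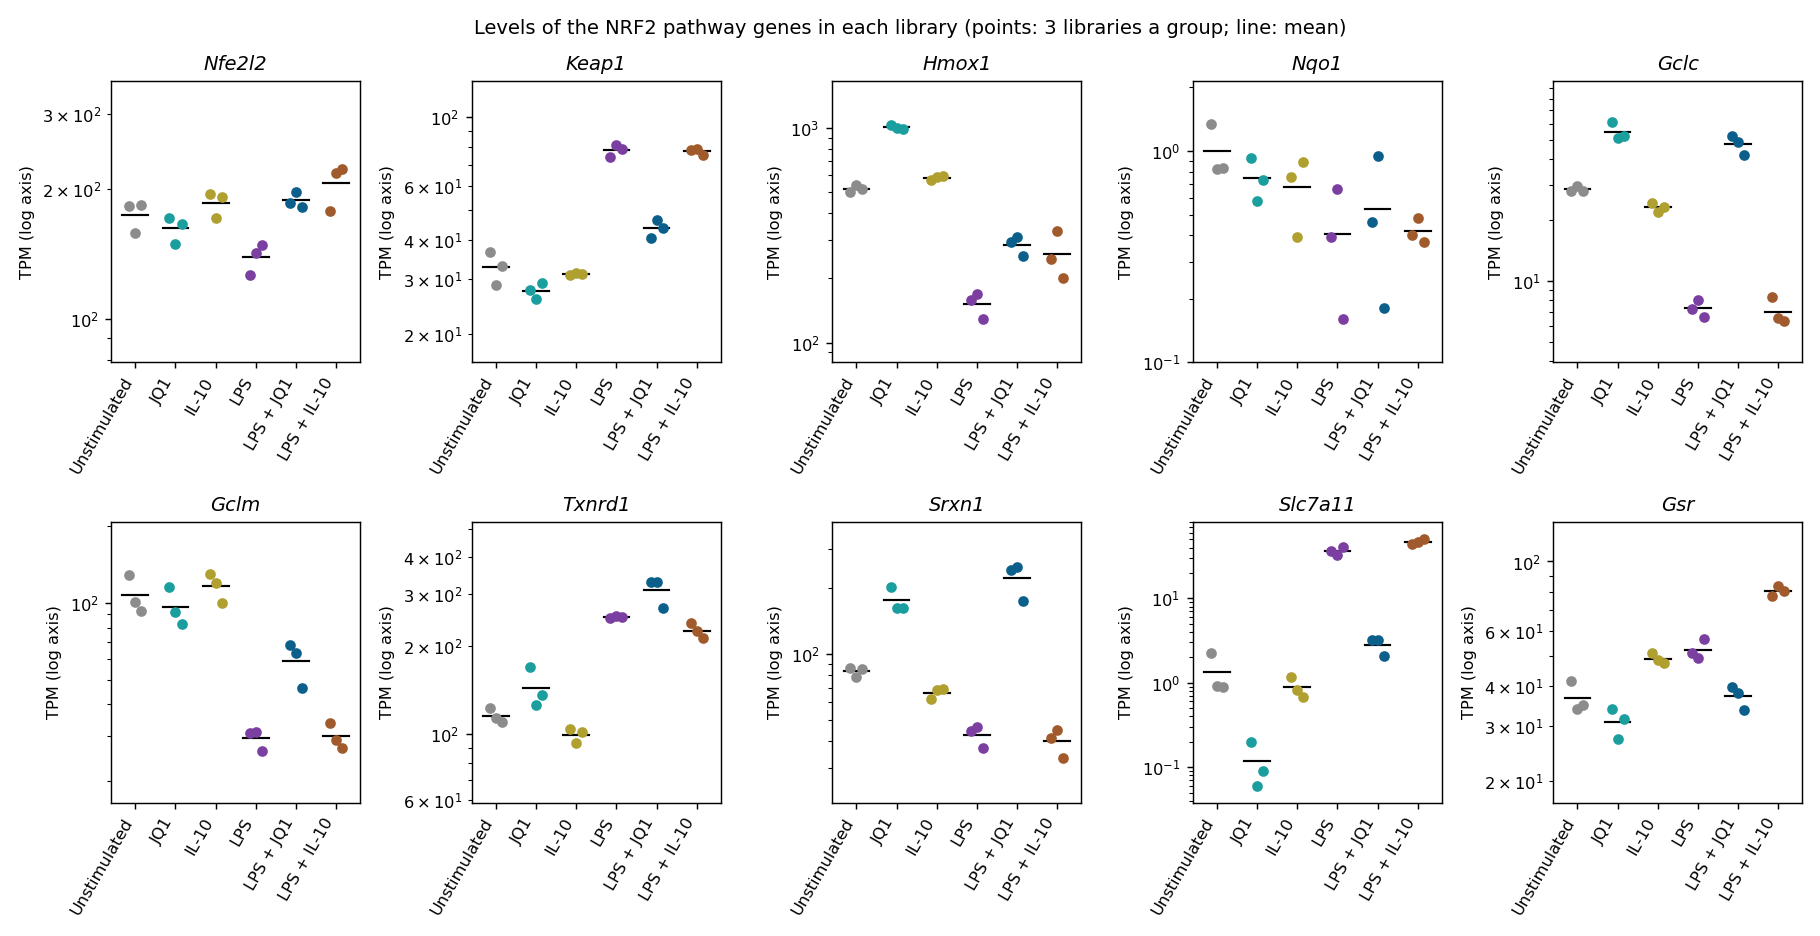
Level of each NRF2 pathway gene in TPM (log axis) in the 18 libraries; points are libraries and black lines are means of 3. Slc7a11 spanned 0.0600 to 50.6 TPM across libraries, while Nfe2l2 spanned 127 to 223 TPM.

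Per transcript length, Hmox1 was the most abundant member, with a mean of 468 TPM over the 18 libraries, followed by Txnrd1 (191), Nfe2l2 (176) and Srxn1 (105). Gclm (73.1 TPM), Keap1 (48.5), Gsr (47.8) and Gclc (28.1) lay in the middle, and Slc7a11 (14.8) and Nqo1 (0.628) were lowest. This order over all libraries did not hold in each group, since Txnrd1 lay above Hmox1 with LPS (251 against 152 TPM) and with LPS + JQ1 (309 against 286 TPM), and Slc7a11 above Gclc with LPS (36.5 against 7.30 TPM). Members differed widely in how much they varied. The highest library was 1.76 times the lowest for Nfe2l2 and 3.08 times for Gsr, but 7.96 times for Hmox1, 9.68 times for Gclc and 843 times for Slc7a11.

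Nfe2l2 (mm9 chromosome 2, 75513570 to 75542698, minus strand), which encodes NRF2 itself, was at 183, 158 and 183 TPM in replicates 1 to 3 of unstimulated cells and at 127, 142 and 148 TPM with LPS. These TPM values were all lower with LPS, although the normalised counts, scaled to the median gene, were all higher. The fitted log2 fold change with LPS was 0.44 (SE 0.0623, adjusted p 6.34e-12), but total-count scaling gave -0.49 and TPM gave -0.33, both past the threshold. Relative to the median of all expressed genes under the same scaling, the change was 0.47, 0.47 and 0.37. Near-equal values in the count fits follow from subtracting that median. Nfe2l2 reached 178, 218 and 223 TPM with LPS + IL-10, above all 3 LPS libraries, a log2 difference of 0.46 (SE 0.0616, adjusted p 5.65e-12). With LPS + JQ1 it was at 186, 197 and 182 TPM, and the log2 difference of 0.14 (SE 0.0618, adjusted p 0.0465) did not pass with the replicate block (adjusted p 0.0657), without a filter (0.0549) or with replicate 1, 2 or 3 left out (0.418, 0.0764 and 0.166). The same difference was larger and passed with TMM factors (0.25, adjusted p 0.000371), total counts (0.51, adjusted p 1.56e-10) and log2(TPM + 1) (0.44, limma adjusted p 0.000540). JQ1 alone (0.10, adjusted p 0.195) and IL-10 alone (0.04, adjusted p 1.00) gave no called difference.

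Keap1 (chromosome 9, 21034174 to 21043776, minus strand), which encodes the sensor that restrains NRF2, was at 36.6, 28.7 and 33.0 TPM in unstimulated cells, 73.9, 81.2 and 78.9 with LPS, and 40.6, 46.5 and 44.0 when JQ1 preceded LPS. LPS raised it 3.99-fold (log2 fold change 2.00, SE 0.0812, adjusted p 4.86e-132), a rise of 1.07 with total counts and 1.23 on log2(TPM + 1). With JQ1 before LPS it stayed above unstimulated libraries and fell by 1.11 on the log2 scale relative to LPS (SE 0.0791, adjusted p 8.57e-44), with no overlap between the groups. The LPS + IL-10 libraries (78.1, 78.6 and 75.3 TPM) overlapped LPS (log2 difference -0.13, adjusted p 0.294). JQ1 alone gave a log2 difference of -0.05 (adjusted p 0.670), which total-count scaling turned into a call at -0.23 and log2(TPM + 1) at -0.24.

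Hmox1 (chromosome 8, 77617490 to 77624495, plus strand), the haem-degrading enzyme haem oxygenase 1, had 504, 539 and 516 TPM in unstimulated cells and 1030.3, 994 and 991 TPM with JQ1. The JQ1 libraries were all above the unstimulated ones, 2.23-fold in the fit (log2 fold change 1.15, SE 0.160, adjusted p 5.50e-12). LPS lowered Hmox1 to 159, 168 and 129 TPM, and in normalised counts the fall was smaller (-0.99, SE 0.160, adjusted p 2.13e-09). JQ1 and IL-10 both raised it during LPS, JQ1 to 295, 309.8 and 252 TPM (0.60, SE 0.161, adjusted p 0.000476) and IL-10 to 245, 332 and 199 TPM (0.66, SE 0.161, adjusted p 0.000572). Both groups remained below the unstimulated libraries in TPM and overlapped each other. In normalised counts LPS + JQ1 (3558 to 4311) was also below unstimulated (5017 to 5667), but LPS + IL-10 (2987 to 5323) overlapped it. IL-10 alone gave 0.12 (adjusted p 1.00).

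Nqo1 (chromosome 8, 109912125 to 109927106, minus strand), a quinone reductase often used as a readout of NRF2, was barely detected. Its highest library, unstimulated replicate 1, had 1.34 TPM, and the lowest, LPS replicate 3, had 0.160 TPM from 2 counts. No Nqo1 comparison passed. The LPS difference of -0.49 had a 95% interval of -1.67 to 0.68. This interval holds no change, the falls of Hmox1, Gclc and Gclm and the rise of Nfe2l2 (0.44). It does not hold the rises of Keap1, Txnrd1, Gsr or Slc7a11. Under total-count scaling the LPS difference was -1.42 and passed.

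Slc7a11 (chromosome 3, 50168858 to 50247535, minus strand), the cystine importer subunit that feeds glutathione synthesis, varied most of all. It was at 2.25, 0.910 and 0.880 TPM in unstimulated cells, 0.200, 0.0600 and 0.0900 after JQ1, and 36.1, 32.9 and 40.7 with LPS. The LPS + JQ1 libraries had 3.20, 3.22 and 2.09 TPM and the LPS + IL-10 libraries 43.5, 46.7 and 50.6. LPS raised it 46.1-fold (log2 fold change 5.53, SE 0.352, adjusted p 1.29e-54), with 5.49 on lane 7 and 6.12 on lane 8. Unstimulated replicate 1, the highest of its group, weighed on this value, and without it the log2 fold change was 6.13. JQ1 lowered Slc7a11 10.2-fold without LPS (-3.35, SE 0.443, adjusted p 5.41e-13; -2.73 without unstimulated replicate 1) and 15.9-fold during LPS (-3.99, SE 0.345, adjusted p 7.08e-30). The JQ1 libraries rested on 17.0, 5.01 and 7.02 expected counts. On log2(TPM + 1), which compresses such low levels, the difference without LPS was -1.02. IL-10 during LPS gave 0.25 (adjusted p 0.734, interval -0.42 to 0.92), although its libraries lay above those of LPS.

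Gclc (chromosome 9, 77602342 to 77642292, plus strand), the catalytic subunit of the enzyme that limits glutathione synthesis, moved the other way. Unstimulated cells had 28.0, 29.4 and 27.8 TPM, JQ1 cells 61.1, 51.0 and 52.4, LPS cells 7.25, 8.05 and 6.60, and LPS + JQ1 cells 52.2, 48.6 and 42.2. LPS lowered it (log2 fold change -1.17, SE 0.140, adjusted p 2.61e-16), and JQ1 raised it without LPS (1.15, SE 0.132, adjusted p 3.21e-17). During LPS, JQ1 raised Gclc 5.27-fold (2.40, SE 0.138, adjusted p 1.37e-65), above every unstimulated library. With IL-10 alone the libraries (24.3, 22.0 and 23.1 TPM) lay below unstimulated ones, a log2 difference of -0.35 that did not pass (adjusted p 0.185) but did with the replicate block (0.0156). LPS + IL-10 (8.28, 6.53 and 6.31 TPM) overlapped LPS.

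Gclm (chromosome 3, 121948475 to 121972902, plus strand), the modifier subunit of the same enzyme, followed Gclc with LPS but not with JQ1 alone. It was at 129, 101 and 92.8 TPM in unstimulated cells, 115, 91.9 and 82.2 after JQ1, 31.0, 31.0 and 26.2 with LPS, and 68.3, 63.4 and 46.4 when JQ1 preceded LPS. LPS lowered it (-1.08, SE 0.186, adjusted p 1.57e-08), JQ1 during LPS raised it (0.70, SE 0.186, adjusted p 0.000387), and JQ1 alone gave 0.05 (adjusted p 0.864, interval -0.31 to 0.41). The LPS + JQ1 libraries stayed below unstimulated ones in TPM but overlapped them in normalised counts (886 to 1359 against 1241 to 1740).

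Gsr (chromosome 8, 34762995 to 34808635, plus strand), which encodes glutathione reductase, was the only member called with IL-10 in both settings. Its TPM was 41.5, 33.9 and 34.9 in unstimulated cells, 51.0, 48.7 and 47.4 with IL-10, and 51.2, 49.2 and 56.5 with LPS. The LPS + IL-10 libraries had 77.5, 83.6 and 80.4 TPM and the LPS + JQ1 libraries 39.9, 38.1 and 33.7. The LPS rise was 1.28 (SE 0.0956, adjusted p 3.06e-40). It was smaller, though still called, with total counts (0.35) and on log2(TPM + 1) (0.50). IL-10 raised Gsr further during LPS (0.51, SE 0.0920, adjusted p 5.80e-07), whereas JQ1 lowered it (-0.79, SE 0.0945, adjusted p 4.10e-16). JQ1 alone gave -0.05 (adjusted p 0.717), which was called at -0.24 on log2(TPM + 1) (limma adjusted p 0.0359). Its libraries (27.2 to 33.8 TPM) lay below unstimulated ones in TPM but overlapped them in normalised counts. The rise with IL-10 alone (0.36, SE 0.0956, adjusted p 0.00903) did not pass without replicate 2 (0.458), without replicate 3 (0.109) or without unstimulated replicate 2 alone, the shallowest library (0.0656).

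Txnrd1 (chromosome 10, 82296696 to 82360469, plus strand), which encodes cytosolic thioredoxin reductase, was at 122, 113 and 110.2 TPM in unstimulated cells, 169, 126 and 136 after JQ1, 249, 253 and 251 with LPS, and 329.8, 328 and 269 when JQ1 preceded LPS. LPS raised it 3.73-fold (1.90, SE 0.115, adjusted p 1.97e-60) and JQ1 alone raised it (0.52, SE 0.115, adjusted p 3.06e-05). The LPS rise was 0.97 with total counts and 1.12 on log2(TPM + 1). Normalised counts with LPS + JQ1 overlapped LPS (-0.00, adjusted p 0.984, interval -0.23 to 0.22), although TPM did not overlap and total-count scaling gave a called rise of 0.37. With IL-10 the log2 differences were -0.27 without LPS (adjusted p 0.322; replicate block 0.00972) and -0.26 during LPS (0.103; block 0.00155; without replicate 1 0.0375).

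Srxn1 (chromosome 2, 151931252 to 151937112, plus strand), sulfiredoxin, which reactivates overoxidised peroxiredoxins, had 86.1, 78.1 and 85.1 TPM in unstimulated cells and 44.4, 46.5 and 37.1 with LPS. In normalised counts this difference was -0.17 (adjusted p 0.349, interval -0.48 to 0.14), and it was called at -1.10 under total-count scaling and -0.95 on log2(TPM + 1). JQ1 raised Srxn1 to 201, 161 and 162 TPM without LPS (1.28, SE 0.157, adjusted p 7.35e-15) and to 241, 249 and 173 TPM during LPS, 4.17-fold above LPS alone (2.06, SE 0.157, adjusted p 7.57e-38). IL-10 alone gave -0.38 (adjusted p 0.278; replicate block 0.0451; without replicate 3 0.0146), and LPS + IL-10 overlapped LPS.

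**Figure D2:**
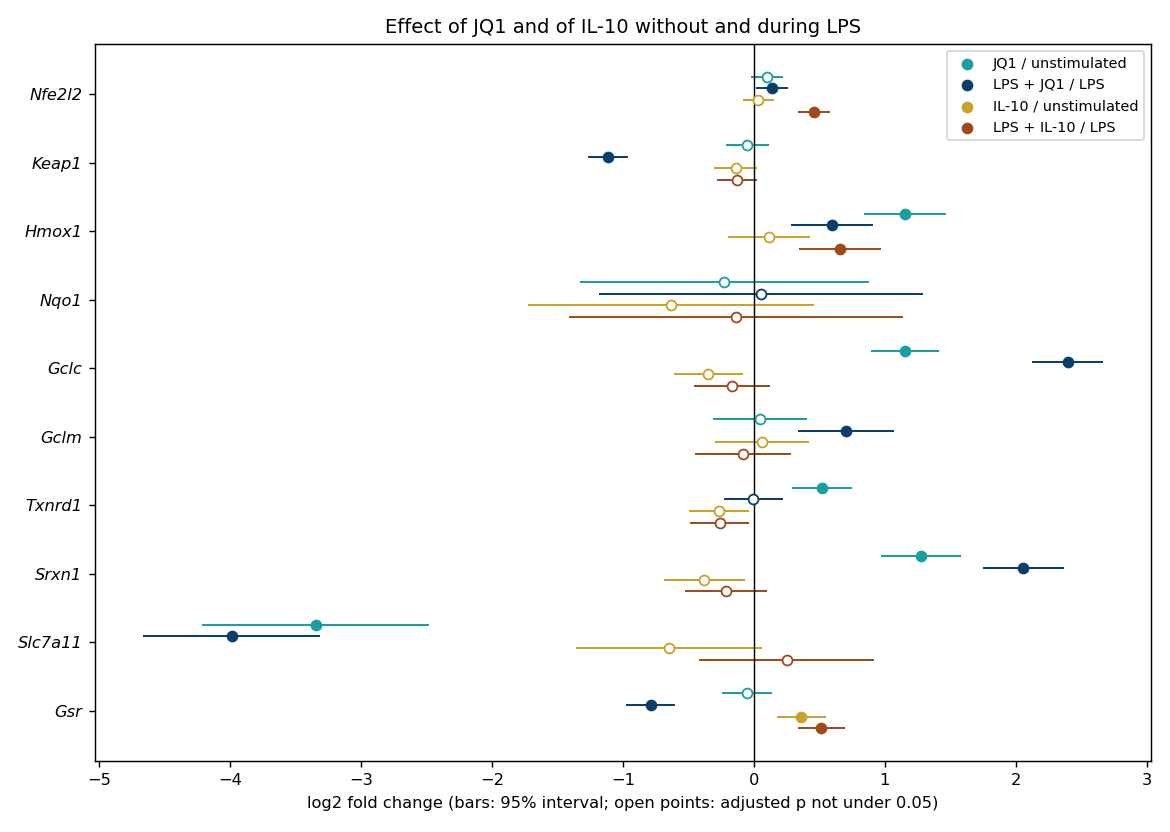
Fitted log2 fold change of each member with JQ1 or IL-10, without LPS and during LPS; filled points had an adjusted p under 0.05 and bars are 95% intervals. Slc7a11 lay far to the left with JQ1 (-3.35 and -3.99), and Gclc (1.15 and 2.40) and Srxn1 (1.28 and 2.06) to the right.

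The response to LPS was then set side by side after each pretreatment. After JQ1, LPS changed 8 members, 6 higher and 2 lower, against 58.6% of all genes, 27.6% higher and 31.0% lower. Under total-count scaling 3 were higher and 3 lower, the rises of Nfe2l2 (0.10, adjusted p 0.248), Gsr (0.17, 0.127) and Srxn1 (0.24, 0.175) being lost and Gclc being called lower (-0.30, 0.0245). Gclc, which LPS lowered in untreated cells, gave 0.07 after JQ1 (adjusted p 0.670), and Srxn1 rose by 0.61 (SE 0.156, adjusted p 0.000232). The smaller fall of Gclm after JQ1 (-0.42, SE 0.184, adjusted p 0.0373) was lost with TMM factors, with edgeR, when only the groups compared were fitted and without replicate 2 (adjusted p 0.151), and was larger with total counts (-0.80) and on TPM (-0.69). Slc7a11 still rose 29.5-fold after JQ1, from its lowered base. After IL-10, LPS changed 8 members, 5 higher and 3 lower, against 67.0% of all genes, 33.2% higher and 33.8% lower, and with total counts 4 were higher and 4 lower. Slc7a11 rose by 6.42 and Nfe2l2 by 0.86 on the log2 scale after IL-10, the latter lost in the total-count (0.03) and TPM (0.14) fits.

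The differences between these responses were tested as interactions. The LPS response differed with JQ1 in 7 of 10 members, against 41.5% of genes tested; 3 were shifted upward (17.7%) and 4 downward (23.8%). Gclc (1.24), Srxn1 (0.78) and Gclm (0.66) were shifted upward, and Keap1 (-1.06), Gsr (-0.74), Hmox1 (-0.56) and Txnrd1 (-0.52) downward on the log2 scale. Total-count scaling gave 4 upward, Nfe2l2 (0.59, adjusted p 4.42e-07) joining them, and only Keap1 downward (-0.51). On log2(TPM + 1) there were 4 upward and 2 downward, with Nfe2l2 again upward (0.55, limma adjusted p 0.00228) and Slc7a11 downward (-2.28). With total counts the Slc7a11 shift was -0.09 (adjusted p 0.907). As stated above, log2(TPM + 1) compresses the low Slc7a11 levels of JQ1 cells, and its part in this call was not tested. Without unstimulated replicate 1, the Gclm and Hmox1 shifts did not pass (adjusted p 0.109 and 0.0781), and the Slc7a11 shift, -0.64 with all libraries (adjusted p 0.379), passed at -1.26 (0.00369). Without replicate 1 and without replicate 2, the Hmox1 shift (adjusted p 0.211 and 0.0936) and the Gclm shift (0.0800 and 0.132) did not pass either. With IL-10 the response differed in 1 of the 9 members with an adjusted p, against 7.44% (4.00% upward and 3.44% downward). This was Nfe2l2 (0.42, SE 0.0872, adjusted p 6.16e-05), which did not pass without replicate 3 (0.0660) or on TPM. Hmox1 (0.54, adjusted p 0.154) passed with the replicate block (0.0417) and without replicate 3 (0.00287).

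**Figure D3:**
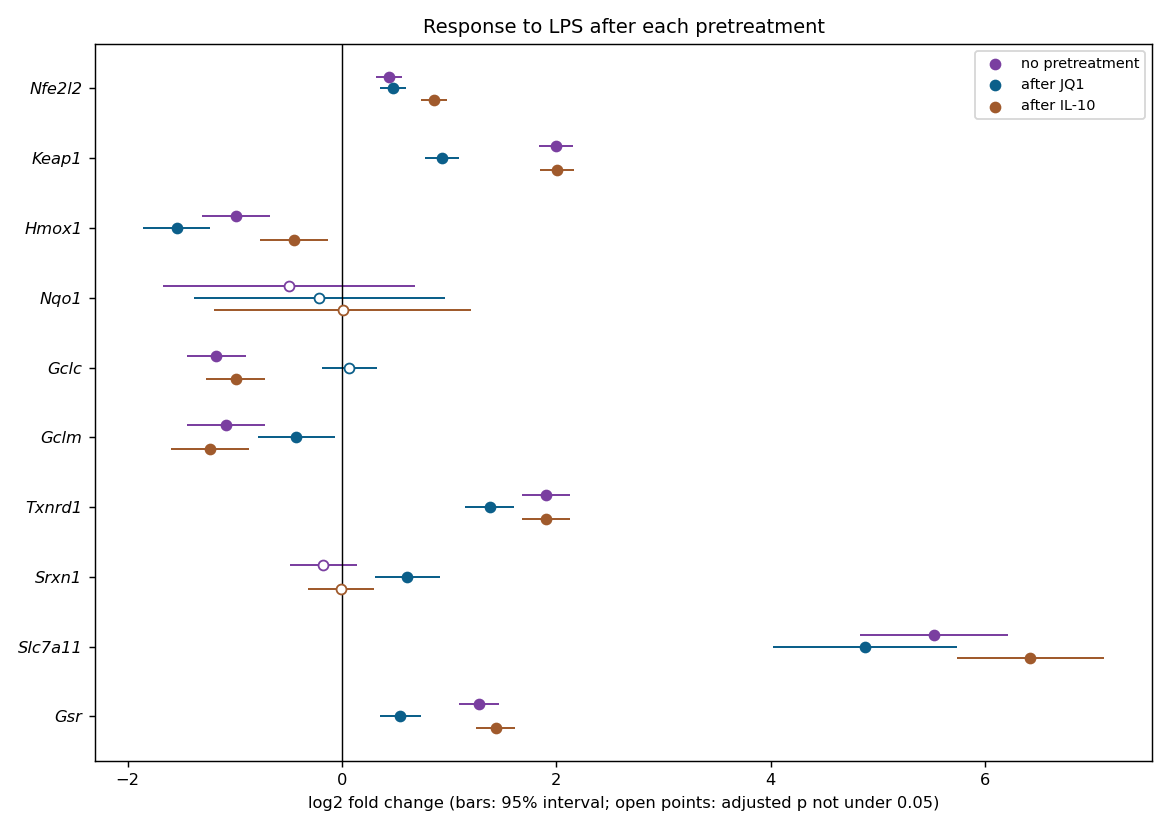
Fitted log2 fold change with LPS after no pretreatment, after JQ1 and after IL-10; filled points had an adjusted p under 0.05 and bars are 95% intervals. Keap1 moved less after JQ1 (0.93) than without it (2.00), and Gclc moved from -1.17 to 0.07.

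The choice of scaling shifted all members together. Expressed genes as a whole had a median log2 fold change with LPS of -0.03 under the scaling used here, -0.11 for TMM, -0.96 for total counts and -0.70 for TPM, and of -0.09, 0.03, 0.29 and 0.18 for JQ1 during LPS. Relative to that median, Keap1 rose with LPS by 2.03, 2.03 and 1.93 in the median-of-ratios, total-count and TPM fits, and Gclc during LPS + JQ1 lay 2.49, 2.49 and 2.37 above LPS. Other size factors shift all genes by nearly the same amount. Near-equal relative values in the count fits therefore follow from the subtraction and do not test the results. Of the 8 members called with LPS, 7 kept their direction in the total-count fit and 7 in the TPM fit, the exception being Nfe2l2 in both, and all 8 called with JQ1 during LPS kept theirs.

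**Figure D4:**
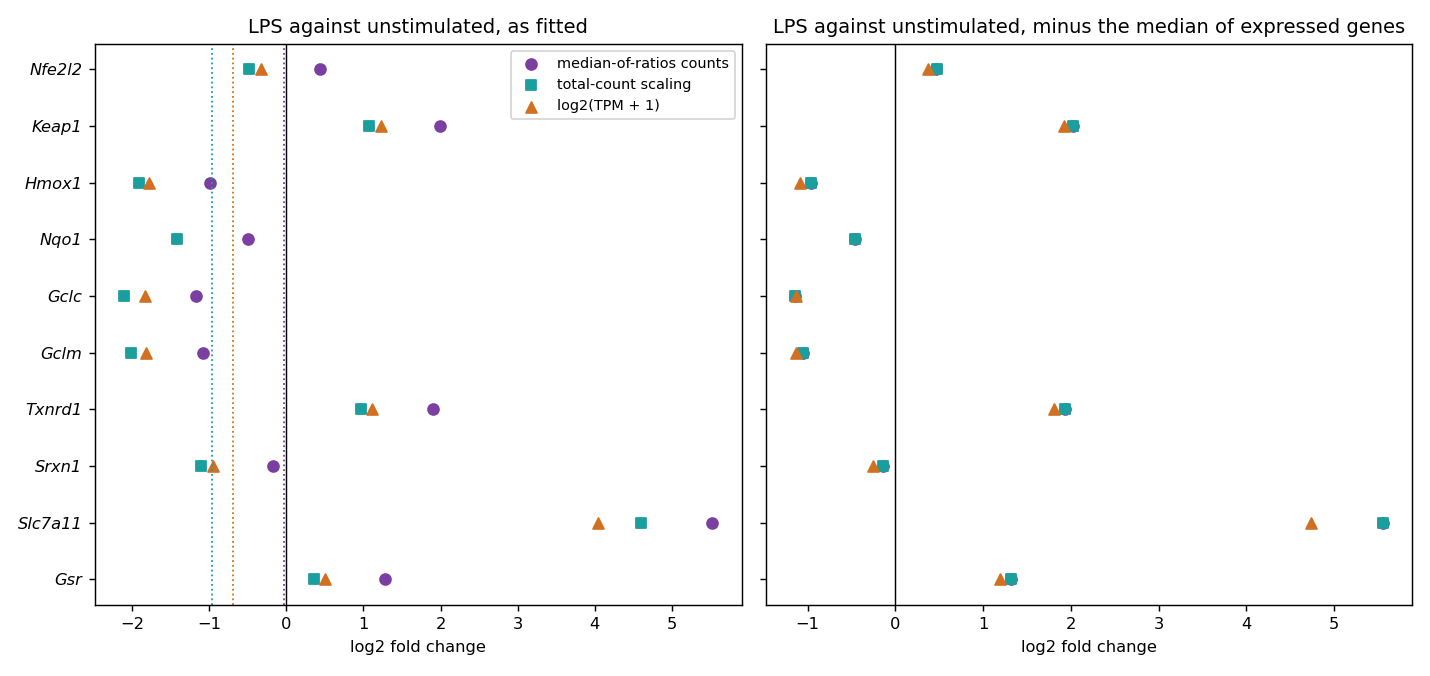
Log2 fold change with LPS under 3 scalings, as fitted (left, dotted lines mark the median of expressed genes) and after subtracting that median (right). The symbols of each gene separate on the left and nearly coincide on the right, which for the count fits follows from the subtraction. The exception was Slc7a11 on log2(TPM + 1), at 4.74 against 5.56, and Nqo1 was not tested on TPM.

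Another 41 genes of the pathway, listed by role, were all measured and tested. LPS raised 18 (43.9%, against 31.6% of all genes) and lowered 19 (46.3% against 32.9%). JQ1 alone raised 17 (41.5% against 21.9%) and lowered 9 (22.0% against 23.7%), and during LPS it raised 15 (36.6% against 24.4%) and lowered 14 (34.1% against 32.9%). IL-10 alone raised 1 and lowered 4 (2.44% and 9.76%, against 1.80% and 1.01%), and during LPS it raised 2 and lowered 7 (4.88% and 17.1%, against 8.38% and 8.81%). These splits turned on scaling, and with total counts they were 7 and 29 for LPS, 11 and 10 for JQ1 alone, 26 and 7 for JQ1 during LPS and 5 and 3 for IL-10 during LPS. Of the 8 regulators, LPS raised 6 and lowered 2, Bach1 and Mafg, and with total counts it raised 4, without Rbx1 and Nfe2l1. Maff, a small MAF partner of NRF2, rose with LPS from 4.11 ± 0.0473 to 35.0 ± 1.73 TPM (SD, n = 3; log2 fold change 3.89, adjusted p 7.24e-70) and was at 3.46 ± 0.624 TPM with LPS + JQ1 (-3.65 against LPS, adjusted p 2.74e-61). Mafk, another partner, rose with LPS (3.04, adjusted p 4.76e-141), as did Sqstm1, the KEAP1-binding autophagy adaptor (1.81, adjusted p 4.50e-31), and Cul3, the ligase scaffold (1.49, adjusted p 1.39e-24). Bach1, the repressor at antioxidant response elements, fell with LPS from 46.3 ± 1.96 to 11.2 ± 2.16 TPM (-1.28, adjusted p 8.94e-63) and was higher with JQ1 during LPS (0.77, adjusted p 1.23e-22). JQ1 during LPS also raised Sqstm1 (0.64, adjusted p 7.52e-05) and lowered Cul3 (-0.61, adjusted p 5.19e-05), a fall that did not pass with total counts (-0.23, 0.186) or on log2(TPM + 1) (-0.28, 0.159), whereas IL-10 lowered Sqstm1 (-0.80, adjusted p 4.00e-06), Maff (-0.60, adjusted p 0.0139) and Mafk (-0.41, adjusted p 0.00256).

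Among the 12 genes of haem, iron, quinone and carbonyl handling, JQ1 alone raised 4 and lowered 4, against 21.9% and 23.7% of all genes. Their median was 0.07 against -0.00 for all genes, and with total counts 3 rose and 5 fell. JQ1 raised Ftl1, the ferritin light chain, in the absence of LPS (1.54, SE 0.0968, adjusted p 1.07e-54) as well as during LPS (1.70, SE 0.0968, adjusted p 2.17e-67), while Fth1, the heavy chain, gave 0.07 and 0.04 (adjusted p 0.605 and 0.781), the latter called at 0.41 with total counts. Both ferritin genes have near-identical copies, so their counts are uncertain. The biliverdin reductases, which act after haem oxygenase, split, with Blvrb higher (0.94, adjusted p 3.85e-15) and Blvra lower (-0.81, adjusted p 3.23e-10) with JQ1. Akr1b8, an aldo-keto reductase, fell with JQ1 without LPS (-1.45) and during LPS (-1.73), and Nqo2, a quinone reductase, fell during LPS (-1.19, adjusted p 2.83e-10). Cbr3, a carbonyl reductase, fell with LPS (-2.36, adjusted p 9.48e-32) and was higher with JQ1 during LPS (0.97, adjusted p 2.86e-05). IL-10 raised Fth1 during LPS (0.33, adjusted p 0.00796).

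Of the 9 glutathione genes JQ1 alone raised 5 and lowered 1 (21.9% and 23.7% of all genes), and during LPS it raised 4 and lowered 1 (24.4% and 32.9% of all genes). With total counts these were 3 and 1, and 7 and 1. Gpx1, which reduces peroxides with glutathione, rose 1.17 on the log2 scale during LPS (SE 0.103, adjusted p 1.12e-28). Of the 6 genes of NADPH supply JQ1 alone raised 3 and lowered 1, and during LPS it raised 1 and lowered 3, which with total counts became 2 and 1, and 4 and 1. G6pdx, the entry enzyme of the pentose phosphate pathway, rose with JQ1 alone (0.80, adjusted p 1.49e-33) and during LPS (0.87, adjusted p 2.71e-38). LPS lowered Idh1, a cytosolic NADPH source (-1.67, adjusted p 2.60e-53). Of the 6 thioredoxin and peroxiredoxin genes JQ1 alone raised 2 and lowered 2, and during LPS it raised 3 and lowered 3. With total counts these were 2 and 2, and 4 and 1, Txn1 turning from lower to higher during LPS. On log2(TPM + 1) the split during LPS was 3 and 1. The shares of all genes given above for the glutathione genes also apply to the NADPH and thioredoxin lists.

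**Figure D5:**
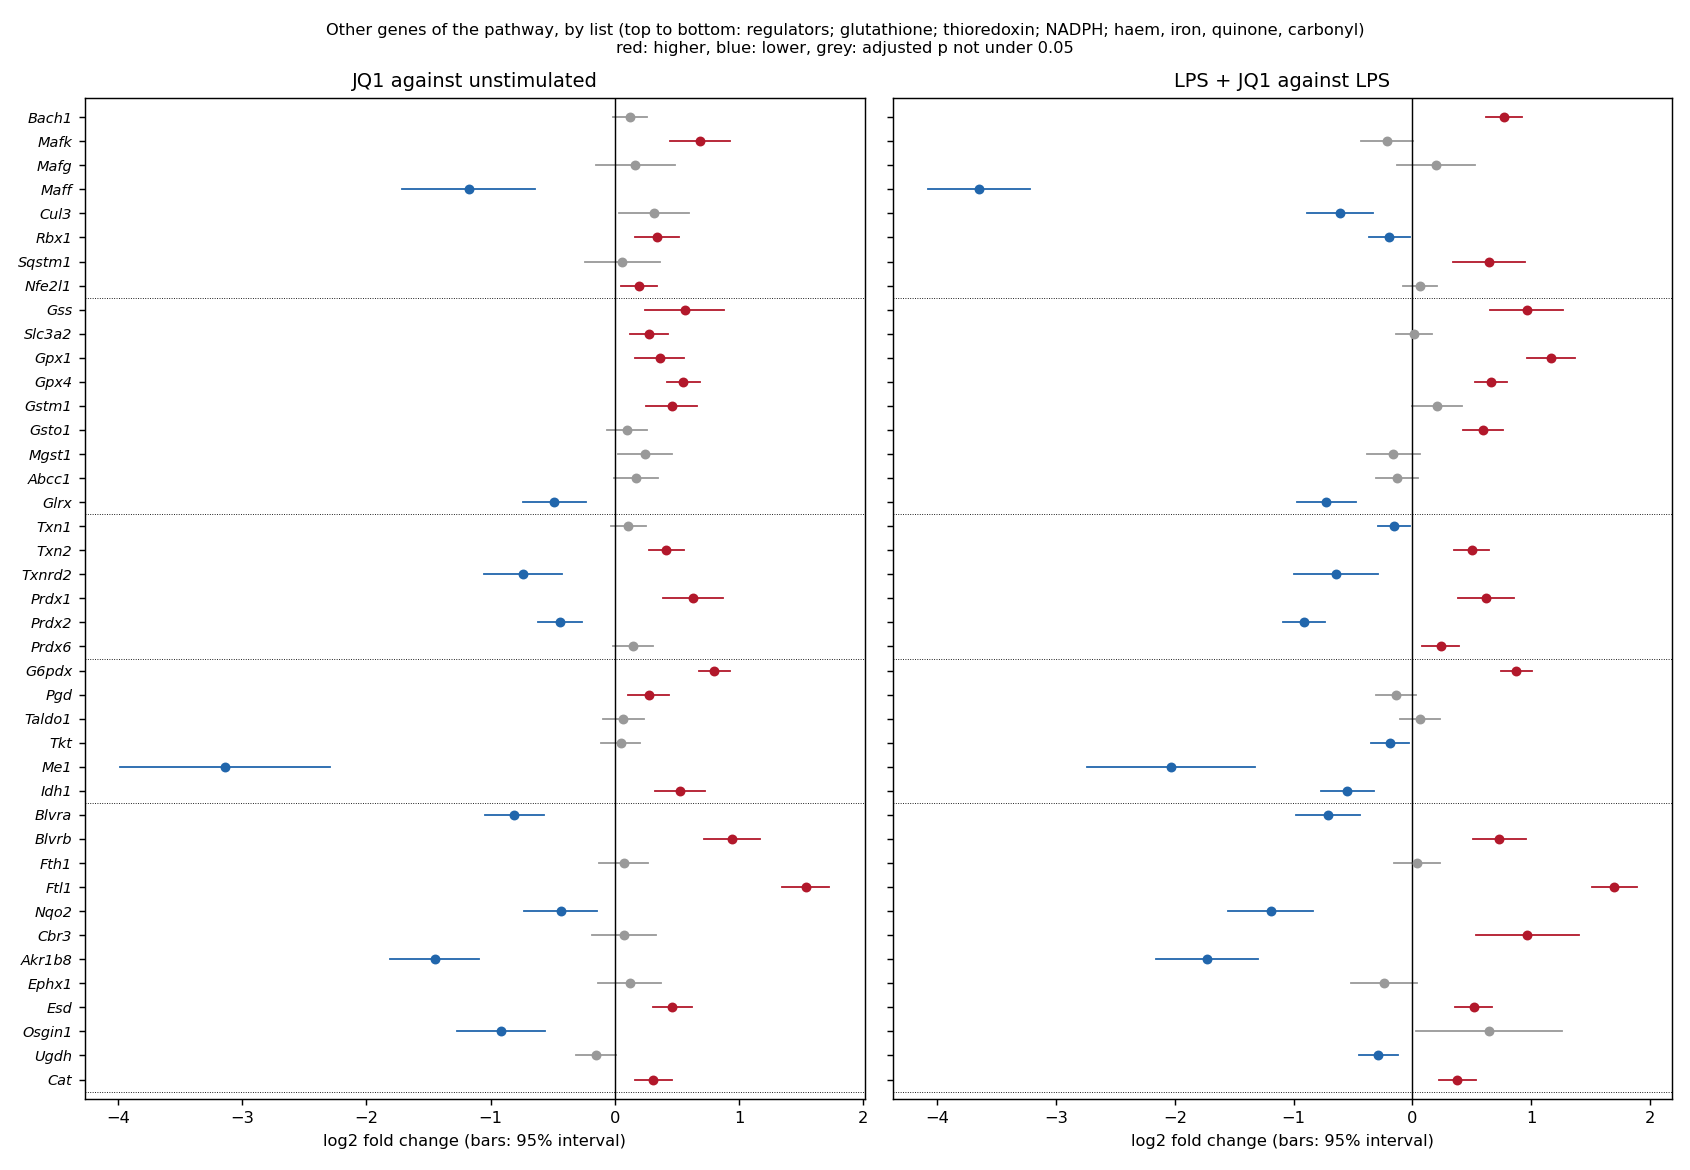
Log2 fold change with JQ1 without LPS (left) and during LPS (right) for the 41 other genes of the pathway, grouped by list between dotted lines, with 95% intervals; red points were higher, blue lower and grey not called. Ftl1 lay highest on both sides (1.54 and 1.70), and Maff lowest on the right (-3.65).

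Members did not share 1 pattern over the 18 libraries, which share group structure and scaling, so correlations are given as description. Pearson's r of log2(normalised count + 1) was 0.94 between Keap1 and Slc7a11, 0.93 between Slc7a11 and Gsr and 0.90 between Gclc and Srxn1, but -0.75 between Slc7a11 and Gclc. Among 8378 genes averaging at least 100 normalised counts, the most like Slc7a11 were Ifit1bl1 (0.994), Oasl2 (0.993) and Epsti1 (0.992). The most like Keap1 was Prkcd (0.998), the most like Txnrd1 was Agrn (0.990), with Mafk at 0.988, and the most like Gclc was Uhrf1bp1 (0.984). For the others these were Gsr with Cp (0.983), Nfe2l2 with P2ry2 (0.980), Srxn1 with Cdc5l (0.974), Hmox1 with Fkbp15 (0.955) and Gclm with Ppard (0.947), while Nqo1, at its low counts, reached 0.579 with Ascc2.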

How the data were processed

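BMDMs from 3 Il10-/- mice gave 18 libraries. The authors made stranded, ribosomal RNA-depleted, paired-end libraries, aligned them to mm9 (STAR) and estimated gene abundance (RSEM 1.2.31). The deposited expected counts are RSEM estimates that divide shared reads among genes and, under default settings, ignore strand, so near-identical and overlapping genes are uncertain. Between 5.40% and 6.63% of a library's genes had a fractional value, and all were rounded before testing. TPM values, deposited beside them, are abundances the authors scaled by transcript length. FPKM values were not used.

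Groups and replicate numbers came from the titles and lanes from the descriptions. All 18 libraries were fitted together by group with the Wald test of DESeq2 1.42.0 (R 4.3.3; two-sided, median-of-ratios size factors, default independent filtering, Benjamini-Hochberg adjustment over all genes tested, called at adjusted p under 0.05), as the study's methods name this test. The script was tested on simulated data. Alternatives were edgeR 4.0.16 with TMM, limma 3.58.1 on log2(TPM + 1) or log2(TPM + 0.1), other size factors and filters, lane or replicate as a term, only the groups compared, and single replicates left out. The series design speaks of matched samples, so a replicate number was read as 1 of the 3 mice and as pairing libraries. Deviations of same-numbered libraries from group means correlated at a mean of 0.0907 over 45 pairs, against -0.0453 over 90 pairs with different numbers. The main fit had no replicate term and took same-numbered libraries as independent. Its p-values therefore measure the spread between libraries within groups, for cells of these mice only. No pair of replicates agreed within sampling noise (chi-square per degree of freedom 3.98 to 28.3). The counting floor of 3 counts covers counting error only.

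The members and lists were chosen with earlier results of these data known. Genes named were the 10 members, Il10, Bach1, Cul3, Sqstm1, and up to 3 rises and 3 falls from the pathway lists in each of 4 comparisons among called genes averaging at least 100 normalised counts. Genes of like pattern were the 3 with the highest Pearson r under the same minimum. Positions are from GENCODE vM1 on mm9.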

Additional observations from a re-analysis of the deposited data

Results flagged for a closer look

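The following members had a response to LPS that differed with the pretreatment, by the interaction test of DESeq2. With JQ1 the response was shifted by -1.06 for Keap1 (SE 0.116, adjusted p 1.34e-18), -0.74 for Gsr (SE 0.136, adjusted p 4.30e-07), -0.56 for Hmox1 (SE 0.226, adjusted p 0.0362) and -0.52 for Txnrd1 (SE 0.162, adjusted p 0.00422), all on the log2 scale. It was shifted by 1.24 for Gclc (SE 0.191, adjusted p 8.87e-10), 0.78 for Srxn1 (SE 0.222, adjusted p 0.00162) and 0.66 for Gclm (SE 0.261, adjusted p 0.0313). With IL-10 it was shifted by 0.42 for Nfe2l2 (SE 0.0872, adjusted p 6.16e-05). Under total-count scaling the Hmox1 shift was -0.00, the Txnrd1 shift 0.03 and the Gsr shift -0.19, none past the threshold, whereas Nfe2l2 was shifted upward by 0.59 (adjusted p 4.42e-07).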

How the results depend on the processing

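Each of 90 member results (10 genes in 9 comparisons, of which 49 were called) was recomputed under 15 alternatives, 2 of them (without unstimulated replicate 1 or 2) chosen after seeing the data. Of 1332 values, 1210 kept direction and side of the threshold, 46 changed sign without a call in either fit, 37 lost and 31 gained the call, and 8 reversed. Reversed here means a change of sign with a call in at least 1 of the fits, not always in both. Of the called results, 36 held throughout and 47 never reversed. Reversals came from scaling alternatives. With LPS, Nfe2l2 gave -0.49 under total-count scaling and -0.33 on both TPM scales. For JQ1 during LPS, Txnrd1 gave 0.37, 0.29 and 0.29 in that order, against an uncalled -0.00 in the main fit. Under total-count scaling LPS after JQ1 gave -0.30 for Gclc, against an uncalled 0.07 in the main fit. The JQ1 interaction gave an uncalled 0.0272 there for Txnrd1, against a called -0.52.

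With IL-10 alone 358 genes were called, against 231 with edgeR, 171 and 117 with limma on log2(TPM + 1) and log2(TPM + 0.1), and 130 to 374 with a replicate or 1 unstimulated library left out (left-out values below are of the same kind). The members called were 4 with the replicate block, 2 with lane as a term, 4 when only the groups compared were fitted, 0 without unstimulated replicate 2, and 0 to 1 with a replicate left out. IL-10 during LPS called 1089 genes when only the groups compared were fitted and 874 to 2024 with a replicate left out, against 1968. The IL-10 interaction called 2 members under total-count scaling, 2 with the replicate block and 0 on both TPM scales, and 529 genes on log2(TPM + 0.1) and 291 to 748 with a replicate left out, against 804. With a replicate left out JQ1 alone called 4050 to 5842 genes and the JQ1 interaction 3471 to 4995. The replicate block changed no other member call than those given with their values. The cause of these shifts was not tested. The fewest counts were behind Nqo1 (2 to 18 a library) and behind Slc7a11 with JQ1 alone (5.01 to 17.0).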
